A study of Mus musculus with 30 samples.

Results

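The enzymes that write and erase DNA methylation were followed in 8 genes, Dnmt1, Dnmt3a, Dnmt3b, Dnmt3l, Uhrf1, Tet1, Tet2 and Tet3, chosen by name from the 54134 gene rows of a count table. All 8 passed the filter on low counts and were among the 12149 genes tested. The table holds 30 libraries of mouse Bruce4 embryonic stem cells (ESCs) and their derivatives during differentiation towards neuromesodermal progenitors (NMPs), the posterior cells that give rise to spinal cord and mesoderm. Cells were wildtype or Nr6a1-/-, the latter being a single clone with CRISPR deletions in exon 4 on both alleles of Nr6a1, an orphan nuclear receptor, so that genotype and line cannot be told apart. All cells received FGF2 for 48 h and were first collected at d2. CHIR99021, an agonist of the Wnt pathway, was then added and cells were collected after 12 h (d2.5) and 24 h (d3). They were collected last after another 24 h, either without Gdf11 (d4) or with Gdf11, a growth factor of the tailbud, during that time (d4G). Each of the 10 groups held 3 replicates. By their labels, every d4 library bears an index sequence that a d4G or d3 library also bears. The methods add this index before samples are pooled, so such pairs cannot have shared a pool. Changes from d3 to d4 and from d4 to d4G may therefore also hold a difference between pools, which was not tested. The study's methods speak of biological replicates, but neither they nor the labels say that replicates came from separate cultures, so the p-values measure the spread between these libraries, which may be technical.

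DNA methylation in mammals is set on CpG dinucleotides by the de novo methyltransferases Dnmt3a and Dnmt3b, with Dnmt3l as a cofactor that has no catalytic activity of its own. Dnmt1 copies the pattern after replication and is brought to hemimethylated DNA by Uhrf1. The Tet proteins oxidise methylated cytosine, which leads to its loss by dilution or repair. In the embryo, the epiblast gains methylation around implantation, when Dnmt3b is abundant, and the level of these enzymes then changes as cells leave pluripotency.

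Library totals ran from 1570714 to 3688197 counts, and a count of 0 allows between 0.829 and 1.91 CPM by library, for counting error only. Levels are given as CPM, counts relative to the library total scaled by TMM factors. Reads came from the 3′ ends of transcripts, so isoforms that share an end, such as the long and short forms of Dnmt3a, were counted together, and a deletion inside Nr6a1 cannot be seen in its counts. The stage labels were checked with marker genes. The summed level of 6 epiblast markers was 956 to 1239.6 CPM in the 6 libraries at d2 and 71.9 to 83.5 CPM at d3, and the sum of 6 NMP markers was highest at d3 in both genotypes, at 742 to 1134 CPM. Of 5 endoderm markers 4 could be tested, and all 4 were lower in Nr6a1-/- cells over the 5 stages, where 12.2% of all genes tested were. Their sum was 0.941 to 9.68 CPM against 14.8 to 66.1 CPM in wildtype cells, with Foxa1 at 0 in every library at d2 and d3. The 6 fibroblast feeder markers, of which 4 could be tested, summed to 32 to 38.9 CPM in Nr6a1-/- and 16.5 to 22 CPM in wildtype libraries at d2, and to 16 to 21.2 and 24 to 26.4 CPM at d4, where Thy1 was called lower, with Lum at 0 in every library at d2, d2.5 and d3. In bulk libraries, fewer cells of a type and less RNA per cell cannot be told apart. The part of the epiblast, NMP, endoderm and feeder differences in the results that follow was not tested.

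One library stood apart from its group in genes that are high at d2. In d4 wildtype replicate 2, 18 genes lay more than 4-fold from the mean log2 CPM of the other replicates. All 18 were higher and all 18 were genes with higher levels at d2, while any other library had at most 2 genes that far from its group. Of 45 genes at least 8-fold higher at d2 in both genotypes, all 45 were above both other replicates in this library, with a median excess of 17.4% of the difference between wildtype d2 and d4. Its epiblast markers summed to 217 CPM against 26.2 and 20.7 CPM in the other replicates. Dnmt3b stood 7.38-fold, Dnmt3a 2.15-fold and Tet1 1.95-fold above the mean of the other replicates, whereas Dnmt1 was at 1.01-fold. Since all groups share one estimate of the spread for each gene, this library also widens the error of those genes at the other stages. Results are therefore given with all 30 libraries and without this one.

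**Figure D1:**
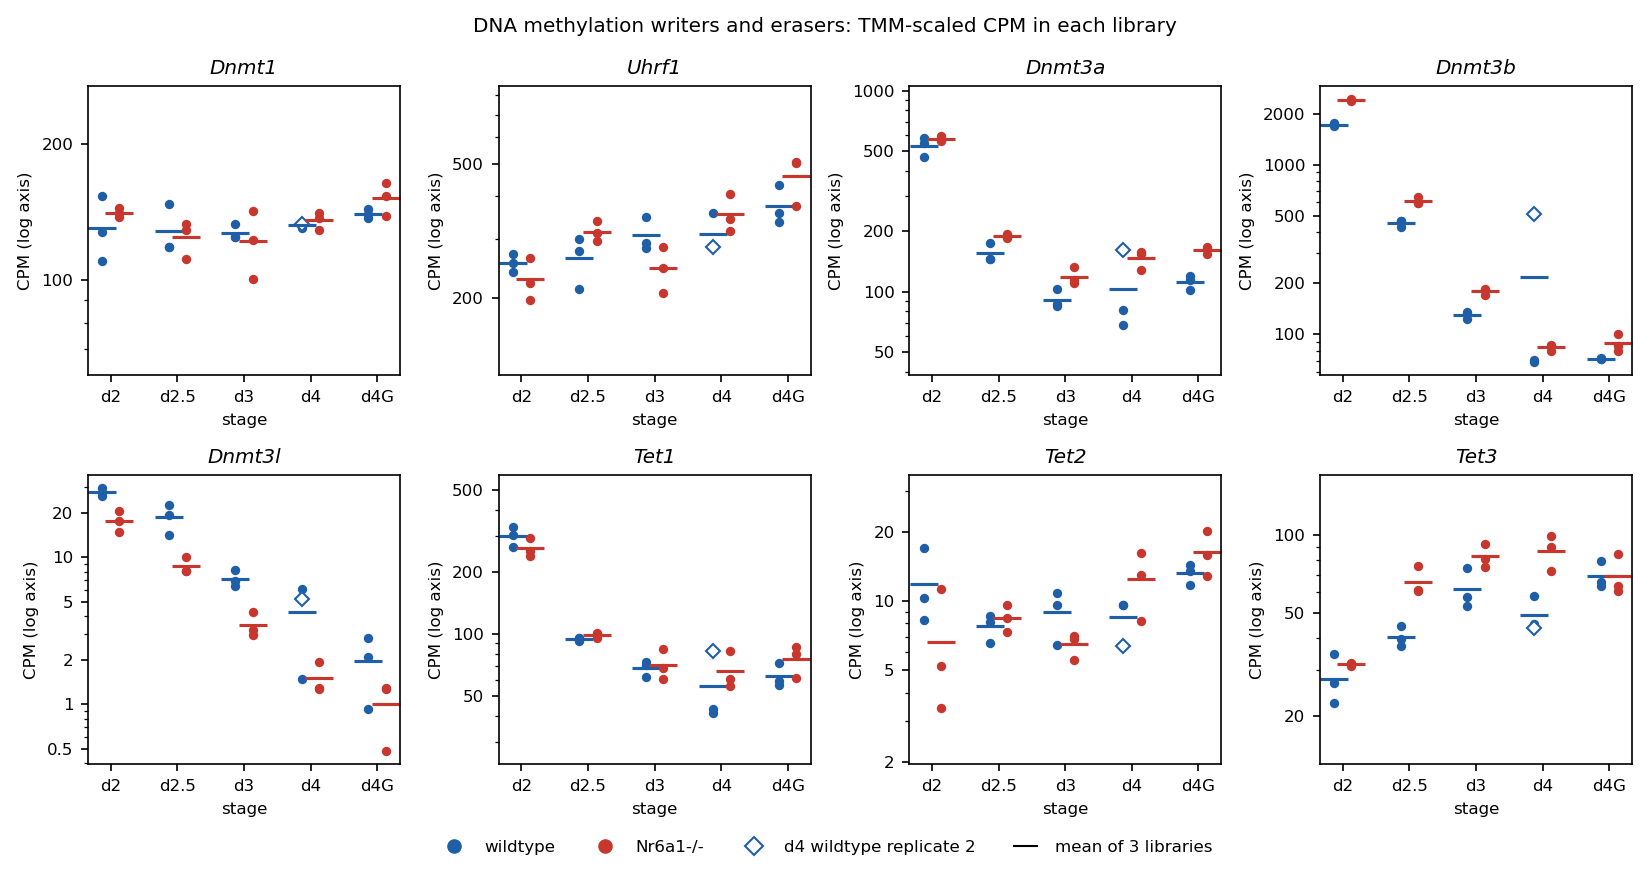
Level of each of the 8 genes in every library, as TMM-scaled CPM on a log axis, against stage. Points are libraries, bars are means of 3 libraries, and the open diamond is d4 wildtype replicate 2, which stands at 516 CPM for Dnmt3b while the other d4 wildtype replicates are at 71.1 and 68.7 CPM.

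Dnmt3b (chromosome 2, 153649450 to 153687730 of GRCm38, plus strand), the main de novo enzyme of the early embryo, had its highest group mean 33.6-fold above its lowest. In wildtype cells its level was 1689.6, 1763 and 1711 CPM at d2, 468, 463 and 429 CPM at d2.5, and 133, 135 and 123 CPM at d3. In Nr6a1-/- cells it was 2383, 2401 and 2433 CPM at d2, 598, 645 and 597 CPM at d2.5, and 184, 169.8 and 183 CPM at d3. At each of these 3 stages every Nr6a1-/- library was above every wildtype library, and no library of one stage reached the range of the stage before. The fall from d2 to d2.5, the first 12 h of Wnt activation, was 3.8-fold in wildtype cells (log2 fold change -1.92, SE 0.325, edgeR FDR = 2.35e-05) and 3.92-fold in Nr6a1-/- cells (-1.97, SE 0.320, FDR = 1.16e-05). A further fall of 3.48-fold (-1.80, FDR = 3.89e-04) and 3.42-fold (-1.78, FDR = 1.76e-04) followed from d2.5 to d3. The change from d2 to d3 was not found to differ between genotypes (interaction -0.023, 95% interval -0.98 to 0.94, FDR = 0.996). All FDR values are from edgeR's quasi-likelihood test, adjusted over the 12149 genes.

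At d4 the Dnmt3b levels were 71.1, 516 and 68.7 CPM in wildtype and 80.1, 85.6 and 86.1 CPM in Nr6a1-/- cells, and at d4G they were 71.2, 72.3 and 71.7 CPM and 85.6, 100 and 80.2 CPM. Apart from d4 wildtype replicate 2, every Nr6a1-/- library was again above every wildtype library at both stages. With all libraries, Dnmt3b was called lower in Nr6a1-/- cells at d4 (-1.41, SE 0.364, FDR = 0.00482). Without that replicate it was 0.25 higher (SE 0.0978, FDR = 0.0809), which did not pass the threshold. The genotype difference at the other stages kept its size and changed its error. At d2 it was 0.48 (SE 0.308, FDR = 0.467) with all libraries and 0.49 (SE 0.0679, FDR = 4.3e-06) without the replicate. The values without it were 0.43 at d2.5 (FDR = 7.77e-05), 0.46 at d3 (FDR = 6.14e-05) and 0.29 at d4G (FDR = 0.0382), all 3 called, and with all libraries none of them was (FDR = 0.491, 0.477 and 0.777). Averaged over the 5 stages, the difference was 0.053 (FDR = 0.858) with all libraries and 0.38, or 1.31-fold higher in Nr6a1-/- cells (SE 0.0366, FDR = 1.51e-10), without the replicate.

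Dnmt3a (chromosome 12, 3806007 to 3914443, plus strand), the de novo enzyme that is kept in many later lineages, fell with Dnmt3b up to d3. Wildtype levels were 467, 581 and 552 CPM at d2, 174, 145 and 145 CPM at d2.5, and 103, 86.5 and 84.4 CPM at d3. In Nr6a1-/- cells they were 571, 564 and 593 CPM, 194, 187 and 186 CPM, and 110.0, 114 and 132 CPM at the same stages. The ranges of the genotypes overlapped at d2 and were apart at d2.5 and d3, with Nr6a1-/- cells higher. The first step was a 3.44-fold fall in wildtype (-1.78, SE 0.158, FDR = 5.58e-11) and a 3.04-fold fall in Nr6a1-/- cells (-1.61, SE 0.152, FDR = 1.92e-10), and the step to d3 was -0.77 (FDR = 0.00195) and -0.67 (FDR = 0.00294).

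The genotype difference of Dnmt3a passed at d4 and at d4G. At d4 it was 80.6, 161 and 68.4 CPM in wildtype and 155, 128 and 157 CPM in Nr6a1-/- cells, and at d4G it was 119, 114 and 102 CPM and 166, 163 and 154 CPM. All Nr6a1-/- libraries were above all wildtype libraries except d4 wildtype replicate 2, the highest of the 6 libraries at d4. Dnmt3a was called higher in Nr6a1-/- cells at d4 by 0.49 (SE 0.164, FDR = 0.0319) and at d4G by 0.53 (SE 0.168, FDR = 0.0427), and without the replicate these became 0.97, or 1.96-fold (SE 0.121, FDR = 1.37e-07), and 0.52 (SE 0.104, FDR = 5.76e-04), with d3 called as well (0.39, FDR = 0.0132). Over the 5 stages it was 1.28-fold higher (0.36, SE 0.0725, FDR = 2.35e-04), or 1.37-fold without the replicate (0.46, SE 0.0469, FDR = 9.55e-10). The d4 call with all libraries was lost when d4 wildtype replicate 1 or 3 (FDR = 0.172 and 0.322) or d4 Nr6a1-/- replicate 1 or 3 (FDR = 0.0892 and 0.121) was left out instead, and the d4G call when any 1 of its 6 libraries was left out (FDR = 0.0615 to 0.165).

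The de novo enzymes were also compared with each other within libraries. There were 3.25 ± 0.322 counts of Dnmt3b for each count of Dnmt3a in wildtype cells at d2 (SD, n = 3) and 4.18 ± 0.0802 in Nr6a1-/- cells, with no overlap. The genotypes overlapped at d2.5 (2.68 to 3.19 in wildtype and 3.07 to 3.44 in Nr6a1-/- libraries) and at d3 (1.29 to 1.56 and 1.38 to 1.68). At d4 the ratio was lower in every Nr6a1-/- library, at 0.518, 0.67 and 0.547 against 0.881, 3.21 and 1 in wildtype. By d4G it was 0.645 ± 0.0526 and 0.549 ± 0.0552 (SD, n = 3), with overlap. The ratio is per 3′ end counted, and is not a ratio of proteins. Dnmt3b has a related duplicate, Dnmt3c, counted in a row of its own, and the way in which any reads shared by both were assigned is not stated.

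Dnmt3l (chromosome 10, 78041947 to 78063622, plus strand), the cofactor, was lower in Nr6a1-/- cells, in which Dnmt3a was higher. Wildtype cells had 27.5, 26 and 29.6 CPM at d2, 19.5, 22.9 and 14.2 CPM at d2.5 and 8.21, 6.91 and 6.4 CPM at d3. Nr6a1-/- cells had 20.7, 17.6 and 14.8 CPM, 8.05, 8.05 and 10 CPM, and 3.21, 4.28 and 2.98 CPM. Every Nr6a1-/- library lay below every wildtype library at these 3 stages. At d4 the levels were 6.1, 5.25 and 1.5 CPM against 1.3, 1.94 and 1.28 CPM, and at d4G 0.93, 2.84 and 2.11 CPM against 0.481, 1.27 and 1.29 CPM, so that the genotypes overlapped and several libraries were close to the limit of counting. Dnmt3l was 2.16-fold lower in Nr6a1-/- cells at d2.5 (-1.11, SE 0.250, FDR = 0.00398, lost when libraries were thinned to the smallest total, FDR = 0.128) and 2.06-fold lower over the 5 stages (-1.04, SE 0.189, FDR = 5.38e-05, and -0.99, FDR = 1.74e-04, without d4 wildtype replicate 2). The d4 call (-1.44, FDR = 0.0284) was lost without that replicate (-1.19, FDR = 0.145) and without any of 3 other d4 libraries (FDR = 0.0703 to 0.115). At d2, d3 and d4G the differences of -0.66, -1.03 and -0.96 did not pass (FDR = 0.0697, 0.0599 and 0.47). Over time Dnmt3l fell in Nr6a1-/- cells from d2 to d2.5 (-1.01, FDR = 0.00217), when the wildtype change was -0.56 (FDR = 0.0516), and in both genotypes from d2.5 to d3 (-1.40, FDR = 3.75e-04 in wildtype and -1.32, FDR = 0.0048 in Nr6a1-/-). The 6 markers of naive ESCs, cells known to express Dnmt3l, summed to 42 to 44.4 CPM in wildtype and 28.5 to 32.6 CPM in Nr6a1-/- libraries at d2, and to 85.4 to 112 CPM and 39.3 to 46.5 CPM at d3, while at d4G the wildtype sum of 108 to 129 CPM was under the 145 to 178 CPM of Nr6a1-/- libraries. Of these 6, 5 were lower in Nr6a1-/- cells over the 5 stages (12.2% of all genes tested) and none had a group mean of 0. Their part in the differences of Dnmt3l and of the germ cell genes Dppa3 and Ddx4 was not tested.

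The sequences upstream of these genes are shown because the windows shown, 1 for each de novo enzyme and 1 for the cofactor, differ in CpG content. Each is the 250 bases before a RefSeq transcription start on GRCm38.p6, plus strand, with every CpG in capitals.
Dnmt3b, chr2:153649199-153649448: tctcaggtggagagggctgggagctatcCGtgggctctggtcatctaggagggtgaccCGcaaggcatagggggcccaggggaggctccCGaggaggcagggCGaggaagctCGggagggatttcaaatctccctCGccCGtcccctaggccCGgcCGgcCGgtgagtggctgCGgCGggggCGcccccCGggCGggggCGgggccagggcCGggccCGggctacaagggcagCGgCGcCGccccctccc
Dnmt3a, chr12:3806730-3806979: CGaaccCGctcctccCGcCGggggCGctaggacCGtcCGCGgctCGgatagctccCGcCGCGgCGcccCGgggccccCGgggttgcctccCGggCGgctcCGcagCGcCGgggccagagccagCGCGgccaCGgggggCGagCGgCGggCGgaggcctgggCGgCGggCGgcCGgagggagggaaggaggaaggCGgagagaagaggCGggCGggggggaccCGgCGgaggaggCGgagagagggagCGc
Dnmt3l, chr10:78049592-78049841: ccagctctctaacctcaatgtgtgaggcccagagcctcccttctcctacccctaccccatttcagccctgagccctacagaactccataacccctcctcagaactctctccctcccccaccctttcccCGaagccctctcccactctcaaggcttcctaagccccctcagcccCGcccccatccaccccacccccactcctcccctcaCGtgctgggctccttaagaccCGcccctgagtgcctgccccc
Counted over windows of 300 bases that run 50 bases past the start, Dnmt3b held 30 CpG, the 3 Dnmt3a windows 46 (the one shown), 47 and 18, and the 3 Dnmt3l windows 6, 4 (the one shown) and 3, against a median of 7 (quartiles 3 and 20) over 32851 windows of all genes. Tet1 held 17, Tet2 57 and Tet3 22, the 3 Dnmt1 windows 2, 12 and 33, and the 2 Uhrf1 windows 12 and 33. The letters TCAAGGTCA, the extended single site known to be bound by Nr6a1, were searched on both strands and occurred in 0 of the 15 windows of the 8 genes and in 139, or 0.423%, of all windows. This says only that these letters are not in these windows. Because reads came from 3′ ends, the counts do not show which start of a gene was in use.

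Tet1 (chromosome 10, 62804570 to 62908996, minus strand), the abundant Tet protein of pluripotent cells, fell with Dnmt3a. Its level was 264, 332 and 303 CPM in wildtype against 251, 238 and 293 CPM without Nr6a1 at d2, and 95.8, 95.5 and 92.6 CPM and 100.5, 100.1 and 95.2 CPM at d2.5. The stages were far apart and the genotypes overlapped at both. The step was a 3.16-fold fall in wildtype (-1.66, SE 0.161, FDR = 4.29e-10) and a 2.65-fold fall in Nr6a1-/- cells (-1.40, SE 0.156, FDR = 7.4e-09). Levels at d3 and later lay between 41.4 and 86 CPM, and the group means of Tet1 and Dnmt3a ran together over the 10 groups (Pearson's r = 0.972 on log2 CPM, a description over groups that share their libraries). At d4 the levels were 41.4, 82.6 and 43.2 CPM in wildtype against 82.7, 60.5 and 55.8 CPM in Nr6a1-/- cells. The difference was 0.23 (FDR = 0.42) with all libraries and 0.63 without d4 wildtype replicate 2 (SE 0.164, FDR = 0.00626), when Tet1 in wildtype cells also fell from d3 to d4 (-0.68, FDR = 0.0024) and was higher with Gdf11 (0.55, FDR = 0.0125). Over 5 stages the genotypes were 0.081 apart (95% interval -0.075 to 0.24, FDR = 0.499), or 0.16 without the replicate (FDR = 0.0585).

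Tet3 (chromosome 6, 83362373 to 83459084, minus strand), the Tet protein known from the zygote and from neural tissue, rose while Tet1 fell. Wildtype cells went from 26.7, 34.5 and 22.4 CPM at d2 to 44.3, 37.1 and 39.5 CPM at d2.5 and 74.3, 52.9 and 57.6 CPM at d3. Nr6a1-/- cells went from 31.1, 31.8 and 31.9 CPM to 61, 75.6 and 60.8 CPM and 75.1, 80.8 and 92.6 CPM. The genotypes overlapped at d2 and were apart at d2.5 and d3, with Nr6a1-/- cells higher. Both wildtype steps passed (0.56, SE 0.183, FDR = 0.0205, and 0.61, SE 0.164, FDR = 0.0108), and so did the first step of Nr6a1-/- cells (1.06, SE 0.160, FDR = 3.39e-06), after which the change was 0.33 (FDR = 0.11). The first wildtype step was lost without d2 wildtype replicate 1 or 3 or d2.5 wildtype replicate 1 (FDR = 0.0555 to 0.157), and the second without d3 wildtype replicate 1 (FDR = 0.0909).

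Between genotypes, Tet3 was 1.63-fold higher in Nr6a1-/- cells at d2.5 (0.71, SE 0.159, FDR = 0.00391), not called at d3 (0.43, FDR = 0.05, and 0.0416 without d4 wildtype replicate 2) and 1.77-fold higher at d4 (0.82, SE 0.146, FDR = 5.23e-05). Its d4 levels were 45.3, 43.7 and 57.9 CPM in wildtype and 72.3, 90 and 98.8 CPM in Nr6a1-/- cells, without overlap, and the call was kept without the replicate (0.72, FDR = 0.00136). With Gdf11 the levels were 79.6, 63.3 and 65.8 CPM against 63.5, 84.1 and 60.9 CPM, which overlapped, and the difference was -0.015 (95% interval -0.32 to 0.29, FDR = 0.973). In wildtype cells Tet3 was higher with Gdf11 than without it by 0.50 (FDR = 0.0102). The change in Nr6a1-/- cells was -0.34 (FDR = 0.106), and the difference between genotypes in this change passed (interaction -0.84, SE 0.209, FDR = 0.0175). Both calls with Gdf11 were lost without d4 wildtype replicate 2 (0.40, FDR = 0.0701, and interaction -0.74, FDR = 0.063) and without d4G wildtype replicate 1 (FDR = 0.0722 and 0.0711), and the interaction also without d4 Nr6a1-/- replicate 3 or d4G Nr6a1-/- replicate 1 or 3 (FDR = 0.0551 to 0.0799). Over the 5 stages Tet3 was 1.35-fold higher in Nr6a1-/- cells (0.43, SE 0.0705, FDR = 1.06e-05). At d4, when this difference was widest, the 4 paraxial mesoderm markers summed to 389 to 425 CPM in Nr6a1-/- and 98.6 to 113 CPM in wildtype libraries, with all 3 that could be tested higher (9.7% of all genes tested) and no group mean at 0 there. The 4 neural markers summed to 5.63 to 11.5 CPM in Nr6a1-/- and 21.6 to 28.8 CPM in wildtype libraries at d4, with Irx3 called lower (9.18% of all genes tested) and no other member called. The part of either list in the Tet3 and Dnmt3a differences was not tested.

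Tet2 (chromosome 3, 133463679 to 133545139, minus strand), known mainly from blood, was the lowest of the Tet genes in counts, and its libraries lay between 3.41 and 20.2 CPM with every neighbouring pair of group means overlapping. It rose once, in Nr6a1-/- cells from d3 (6.83, 5.56 and 7.07 CPM) to d4 (13, 8.22 and 16.2 CPM), by 0.95 (SE 0.317, FDR = 0.0243), a call lost without any of 4 of those 6 libraries (FDR = 0.0525 to 0.171). Its largest genotype difference was at d2, with 8.31, 17 and 10.3 CPM in wildtype and 11.3, 5.24 and 3.41 CPM in Nr6a1-/- cells, and did not pass (-0.85, FDR = 0.146).

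The maintenance pair was steadier. Dnmt1 (chromosome 9, 20907209 to 20959888, minus strand) had group means of 122 to 152 CPM, a span of 1.25-fold, and was called in 0 of 17 comparisons by edgeR, with 0 at an unadjusted p under 0.05 and 0 called by DESeq2. Its genotype difference over the 5 stages was 0.033 (95% interval -0.067 to 0.13, FDR = 0.688), while the interval of Dnmt3a was 0.21 to 0.51 and that of Tet3 0.29 to 0.58. Uhrf1 (chromosome 17, 56303321 to 56323486, plus strand) spanned 2.03-fold, from 227 ± 33 CPM in Nr6a1-/- cells at d2 to 461 ± 75.4 CPM in Nr6a1-/- cells at d4G (SD, n = 3). Its rises were called in Nr6a1-/- cells, from d2 to d2.5 (221, 198 and 263 CPM to 339, 311 and 295 CPM, 0.47, FDR = 0.0083), from d3 to d4 (206, 246 and 282 CPM to 342, 315 and 407 CPM, 0.54, FDR = 0.00247) and with Gdf11 (to 502, 508 and 374 CPM, 0.37, FDR = 0.0429). In wildtype cells it was 238 to 271 CPM at d2 and 337 to 431 CPM at d4G, and no single step passed. None of the 3 tests of the difference between genotypes in change passed for Uhrf1 (FDR = 0.772, 0.0944 and 0.873), and over the 5 stages the genotypes differed by 0.054 (95% interval -0.067 to 0.17, FDR = 0.566). The call with Gdf11 was lost without any of 4 libraries (FDR = 0.113 to 0.164), and that from d2 to d2.5 without d2 replicate 2 or d2.5 replicate 1 (FDR = 0.0761 and 0.0542).

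**Figure D2:**
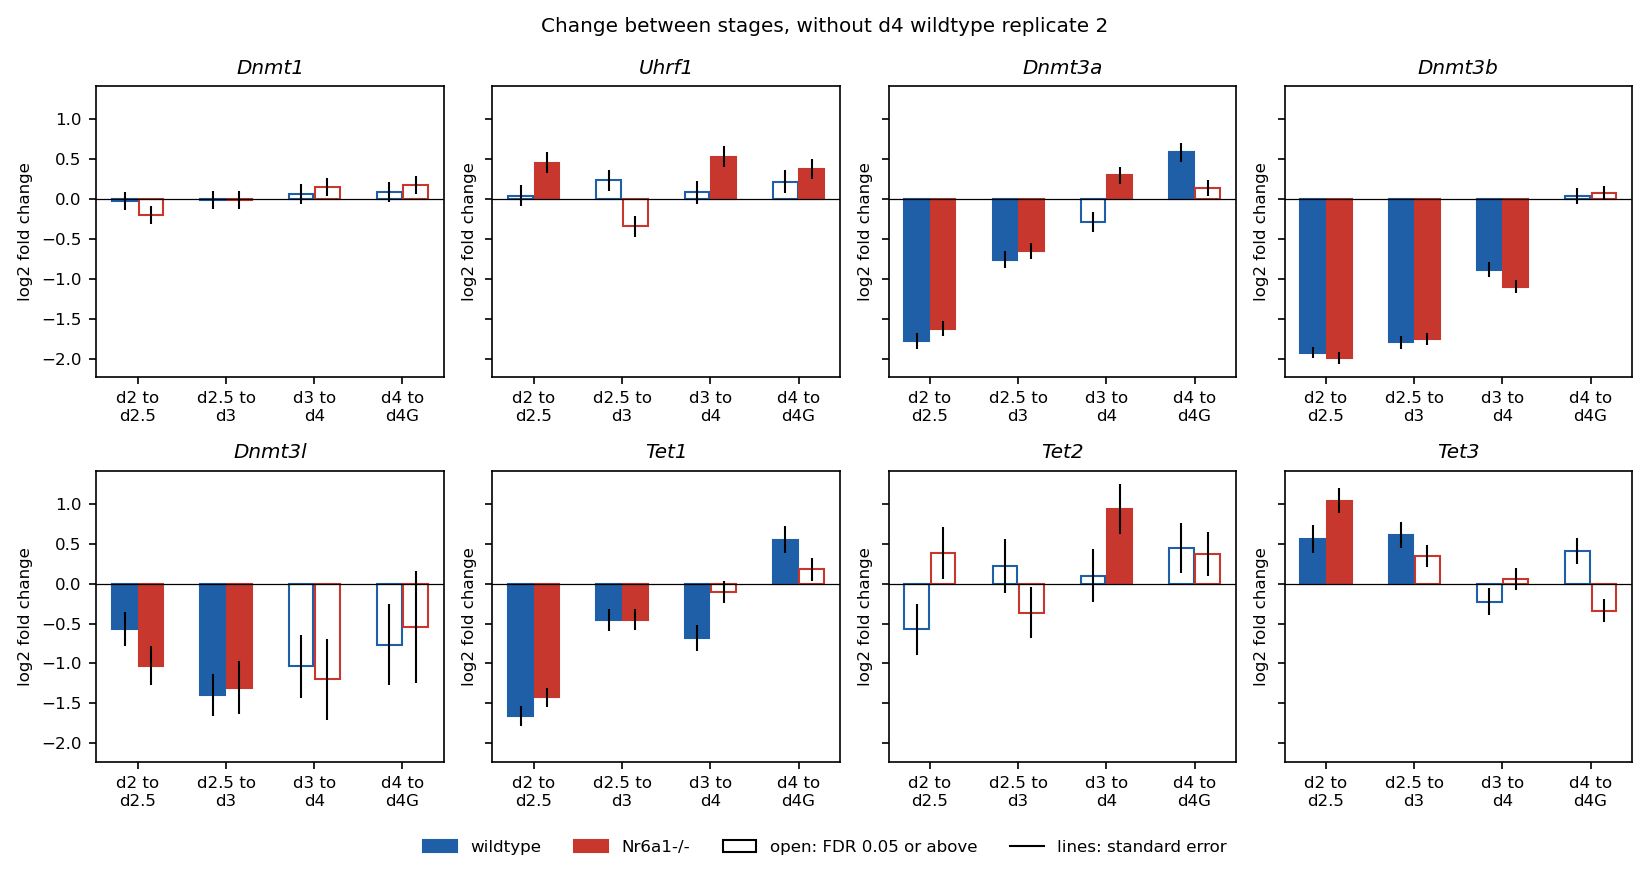
Log2 fold change of each gene between neighbouring stages in wildtype and Nr6a1-/- cells, without d4 wildtype replicate 2, with standard errors as lines and open bars for FDR of 0.05 or above. Dnmt3a, Dnmt3b and Tet1 fell in both genotypes in the first step, with log2 fold changes from -1.99 (Dnmt3b) to -1.42 (Tet1) in the Nr6a1-/- cells, while Tet3 rose.

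Counted over the 8 genes, 3 fell and 1 rose from d2 to d2.5 in wildtype cells, where 12.1% of all genes tested fell and 13.3% rose. In Nr6a1-/- cells 4 fell and 2 rose in that step (11.2% and 12.9% of all). From d2.5 to d3, 3 fell and 1 rose in wildtype cells (5.56% and 5.91% of all), and 3 fell and 0 rose in Nr6a1-/- cells (8.45% and 7.43% of all). From d3 to d4, 0 fell and 0 rose in wildtype cells with all libraries by edgeR (11.3% and 9.77% of all), although Dnmt3b, Dnmt3l and Tet3 had unadjusted p-values under 0.05, and DESeq2 called 0. Without d4 wildtype replicate 2, 2 fell (Dnmt3b by 0.89 and Tet1 by 0.68 on the log2 scale), where 19.3% of all genes were called in either direction. In Nr6a1-/- cells at that step 1 fell and 2 rose (12.3% and 13.6% of all), Dnmt3b falling by 1.09 (FDR = 0.0266), a call lost without any of 5 of its 6 libraries (FDR = 0.0521 to 0.066) and by DESeq2 (FDR = 0.0555), and kept without d4 wildtype replicate 2 (-1.10, FDR = 2.6e-13). With Gdf11, 1 fell and 1 rose in wildtype cells (14.5% and 14.3% of all), and 0 fell and 1 rose in Nr6a1-/- cells (9.59% and 8.45% of all). The Dnmt3b fall with Gdf11 in wildtype cells (-1.64, FDR = 8.39e-04) became 0.032 (FDR = 0.854) without d4 wildtype replicate 2, and Dnmt3a was then higher with Gdf11 (0.58, FDR = 4.7e-04).

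**Figure D3:**
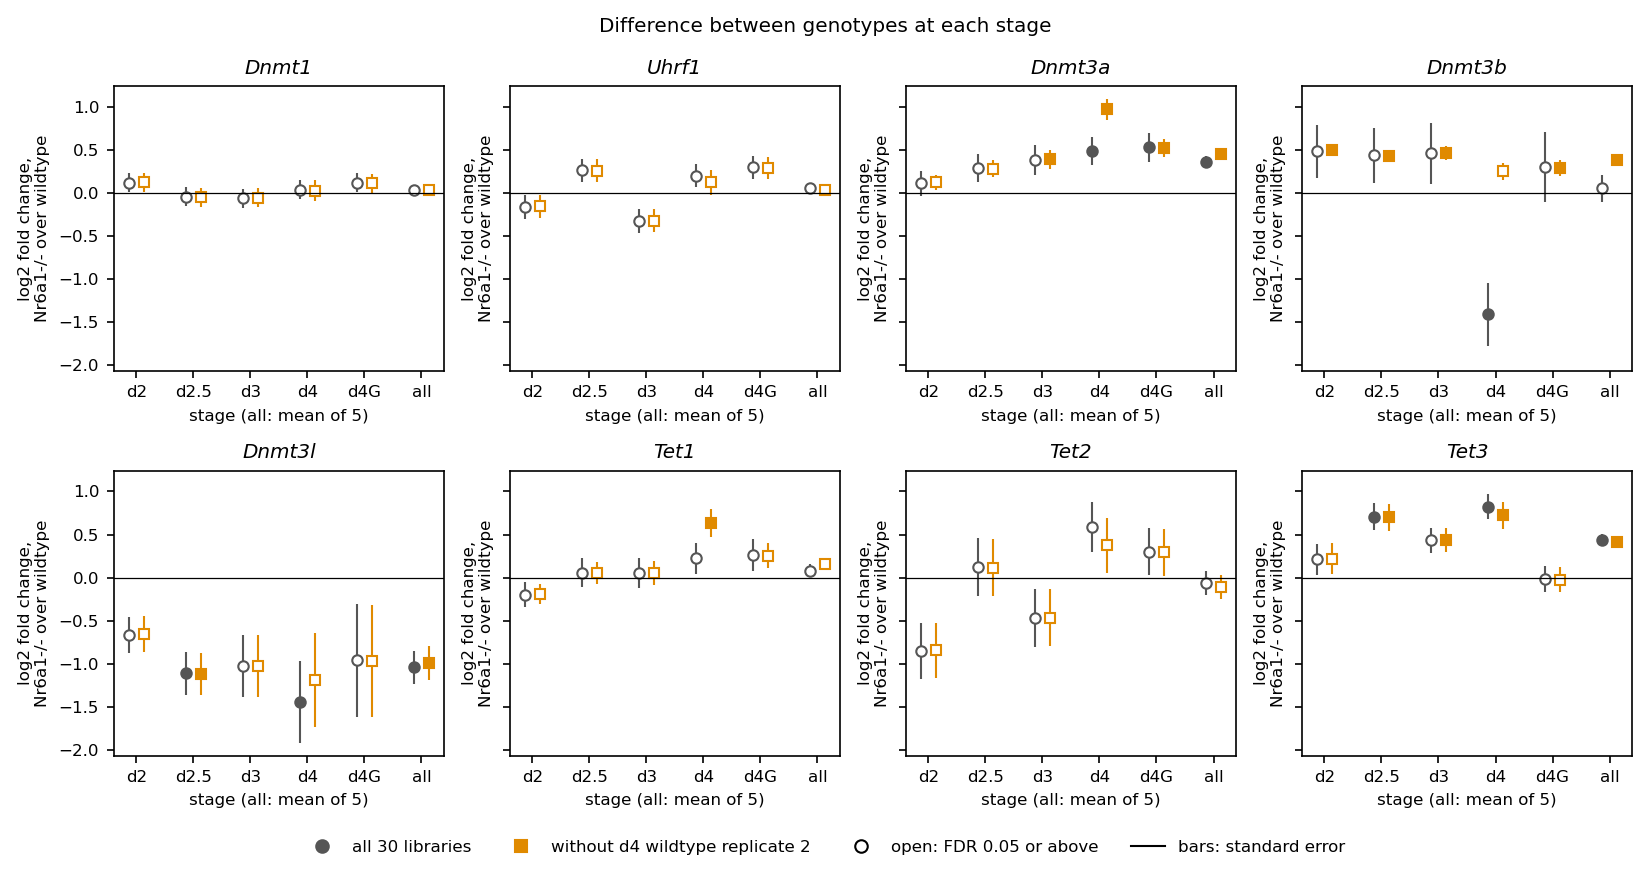
Log2 fold change of Nr6a1-/- over wildtype cells for each gene at each stage and averaged over 5 stages, with standard errors, from all 30 libraries (circles) and without d4 wildtype replicate 2 (squares). Filled symbols passed FDR 0.05, and the d4 value of Dnmt3b moved from -1.41 to 0.25 when the replicate was left out.

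Between genotypes, 0 of the 8 genes were called higher and 0 lower at d2 by edgeR (1.35% and 2.72% of all genes), where Dnmt3l and Tet2 had unadjusted p-values under 0.05 and DESeq2 also called 0. At d2.5 Tet3 was higher and Dnmt3l lower (2.86% and 3.59% of all). At d3 edgeR called 0 higher and 0 lower (4.47% and 6.3% of all) and DESeq2 called 0, while Dnmt3a, Dnmt3l, Uhrf1 and Tet3 had unadjusted p-values under 0.05. DESeq2 was fitted to the same 30 libraries, so it is no separate check on the library that stood apart. Without d4 wildtype replicate 2, edgeR called Dnmt3b higher at d2, and Dnmt3a, Dnmt3b and Tet3 higher at d3. In that fit 4.49% and 11% of all genes were called in either direction. With all libraries at d4, 2 were higher and 2 lower (9.7% and 9.18% of all). Without d4 wildtype replicate 2, Dnmt3a, Tet1 and Tet3 were called higher at d4, and neither Dnmt3b nor Dnmt3l was called, where 15.1% of all genes were called in either direction. With all libraries at d4G 1 was higher and 0 lower (3.28% and 4.63% of all). Averaged over the 5 stages Dnmt3a and Tet3 were higher and Dnmt3l lower (10.4% and 12.2% of all), and Dnmt3b joined those higher without d4 wildtype replicate 2. In the tests of a difference between genotypes in change, 0 passed in either direction from d2 to d3 by edgeR (1.19% higher and 1.09% lower over all genes), with 0 at an unadjusted p under 0.05 and 0 by DESeq2. Dnmt3b alone passed from d3 to d4, on the lower side (2.97% higher and 2.75% lower over all), and Tet3 alone from d4 to d4G, on the lower side (1.17% higher and 1.49% lower over all). The Dnmt3b value (-1.87, SE 0.509, FDR = 0.0223) lost its call without d3 wildtype replicate 3 (FDR = 0.0515) or d4 Nr6a1-/- replicate 3 (FDR = 0.0509) and with DESeq2 (0.0549), and was -0.22 without d4 wildtype replicate 2 (FDR = 0.387), and Dnmt3a then passed in its place (0.58, SE 0.161, FDR = 0.0295).

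Genes that guide or assist maintenance were examined as a list of 17, of which 16 could be tested. Over the 5 stages 3 were higher and 2 lower in Nr6a1-/- cells (10.4% and 12.2% of all), with a median log2 fold change of 0.058 against 0.013 over all genes. The lower gene with the largest change was Dppa3, a maternal factor that keeps Uhrf1 from chromatin. Its level was 38.1, 31.3 and 25.6 CPM in wildtype and 22.1, 15.8 and 12.3 CPM in Nr6a1-/- cells at d3, 29.2, 21 and 19.8 CPM and 10.4, 5.32 and 7.24 CPM at d4, and 38.1, 14.6 and 26.6 CPM and 4.33, 5.09 and 4.29 CPM at d4G. The genotypes were apart at all 3 stages, with differences of -0.91 (SE 0.237, FDR = 0.00857), -1.56 (SE 0.285, FDR = 8.72e-05) and -2.52 (SE 0.333, FDR = 9.17e-07). Uhrf2, a relative of Uhrf1 that binds hydroxymethylated DNA, rose from 16.7 ± 1.13 to 31.3 ± 2.05 CPM in wildtype cells from d2 to d2.5 (0.90, FDR = 4.85e-04) and from 17.5 ± 2.02 to 35 ± 5.12 CPM in Nr6a1-/- cells (1.00, FDR = 3.81e-05, SD, n = 3). Hells, a chromatin remodeller needed for methylation of repeats, fell in the same step in both genotypes (-0.76, FDR = 2.21e-09 in wildtype, and -0.76, FDR = 1.72e-09 in Nr6a1-/- cells). In that step 1 of the 16 rose and 4 fell in wildtype cells (13.3% and 12.1% of all), and 2 rose and 5 fell in Nr6a1-/- cells (12.9% and 11.2% of all).

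**Figure D4:**
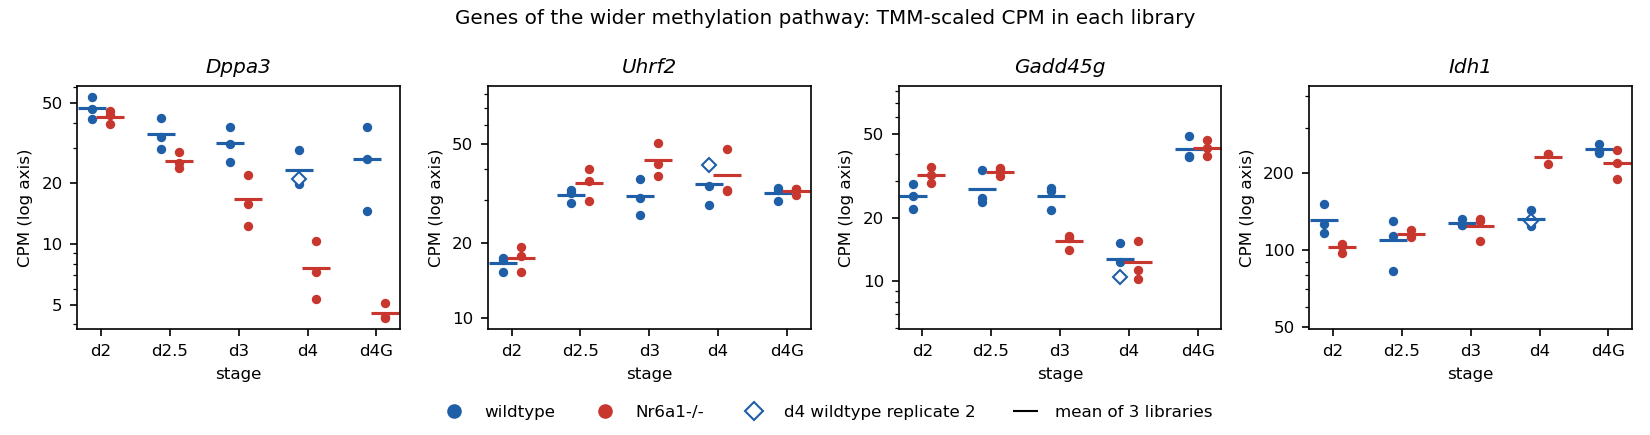
Levels in every library of Dppa3, Uhrf2, Gadd45g and Idh1, as TMM-scaled CPM on a log axis, against stage, with bars for means of 3 libraries and the open diamond for d4 wildtype replicate 2. The Nr6a1-/- libraries of Dppa3 at d4G lie between 4.29 and 5.09 CPM, under all wildtype libraries, and Gadd45g is higher at d4G than at d4 in both genotypes.

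Of 14 genes of repair that remove oxidised bases, 12 could be tested, and over the 5 stages 1 was higher and 0 lower in Nr6a1-/- cells, where 10.4% and 12.2% of all were (Parp1, a sensor of DNA breaks, 0.21, FDR = 1e-04), with a median of -0.0013 against 0.013 over all genes. Gadd45a, a stress protein linked to active demethylation, was lower in Nr6a1-/- cells at d2 (85 ± 22.6 against 193 ± 55.8 CPM, SD, n = 3, -1.18, FDR = 0.0021). Its relative Gadd45g was higher with Gdf11 in both genotypes, from 12.7 ± 2.4 to 42.5 ± 5.58 CPM in wildtype (1.77, FDR = 1.98e-10) and from 12.3 ± 2.78 to 43.2 ± 3.85 CPM in Nr6a1-/- cells (1.81, FDR = 6.08e-10, SD, n = 3). Of 5 readers of methylated CpG 3 could be tested. Over the 5 stages 1 was higher and 0 lower in Nr6a1-/- cells (10.4% and 12.2% of all), and at d4 2 were higher and 0 lower (9.7% and 9.18% of all). Zbtb38, a zinc finger protein that binds methylated DNA, was 103 ± 19.4 CPM in Nr6a1-/- and 48.4 ± 1.76 CPM in wildtype cells at d4 (SD, n = 3, 1.09, FDR = 4.7e-07). At d4G its levels overlapped, at 80.3, 91.1 and 106 CPM against 76.3, 77.1 and 84.7 CPM, and 0 readers were called (3.28% and 4.63% of all).

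Among 11 genes that supply the methyl donor or the Tet cofactor, 10 could be tested, and 2 were higher and 0 lower in Nr6a1-/- cells over the 5 stages, where 10.4% and 12.2% of all were (Mat2a, which makes S-adenosylmethionine, 0.20, FDR = 6.98e-05, and Idh2, which makes 2-oxoglutarate in mitochondria, 0.24, FDR = 4.24e-04), with a median of 0.041 against 0.013 over all genes. At d4 Mat2a went the other way, with 284, 319 and 309 CPM in Nr6a1-/- libraries, all below the 343, 336 and 385 CPM of wildtype. At that stage 2 genes of the list were called higher and 1 lower (9.7% and 9.18% of all). Idh1, the cytosolic relative of Idh2, rose in wildtype cells from 132 ± 10.3 CPM at d4 to 247 ± 9.83 CPM at d4G, and had 230.0 ± 11.7 and 218 ± 27.6 CPM in Nr6a1-/- cells (SD, n = 3). It was higher in Nr6a1-/- cells at d4 (0.79, FDR = 8.08e-07) and was higher with Gdf11 in wildtype cells (0.90, FDR = 5.92e-08). The genotypes differed in that change (interaction -0.98, FDR = 7.6e-05).

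Of 13 germline genes whose promoters are known to be silenced by methylation, 7 could be tested, and over the 5 stages 0 were higher and 2 lower in Nr6a1-/- cells (10.4% and 12.2% of all), with a median of -1.12 against 0.013 over all genes. Ddx4, an RNA helicase of germ cells, fell over time in both genotypes and was lower in Nr6a1-/- cells. Its level was 18.6, 15.2 and 9.61 CPM against 6.9, 7.35 and 7.87 CPM at d2.5, and 8.21, 9.67 and 4.8 CPM against 2.41, 2.14 and 3.35 CPM at d3, with no overlap at either stage. The differences were -0.97 (FDR = 0.0319) and -1.47 (FDR = 0.0108), and over the 5 stages -1.34 (SE 0.209, FDR = 4.62e-06). The summed level of the 13 genes went from 55.5 to 79.6 CPM at d2 to 3.86 to 9.3 CPM at d4G.

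Replication, with which maintenance methylation is coupled, was followed by 16 S-phase genes. Their summed level lay between 2207 and 2875 CPM in all 30 libraries, and 0 were higher and 2 lower in Nr6a1-/- cells over the 5 stages (10.4% and 12.2% of all), with a median of 0.034. Both lower genes are on chromosome 8, where the median over 635 tested genes was -0.35 against 0.021 on other chromosomes, and none of the 8 writers and erasers lies there. The genes of chromosome 8 are also part of the shares of all genes called, and the cause of their shift was not tested.

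By pattern over the 10 group means, among 9730 genes that reach 10 CPM in some group, Dnmt3b was most like Pou3f1 (Pearson's r = 0.988 on log2 CPM), Pdzd4 and Slc27a2, and Dnmt3a like Tet1, Snhg14 and Myrf. Tet1 was close to Crebrf and Zbtb8a (r = 0.978 and 0.976). Dnmt3l was most like Dnttip2 (r = 0.986), Cyct and Dppa4, and Tet3 like Fstl1 (r = 0.965), Zfp449 and Sall3. Dnmt1 was most like Tmem131l, Adam19 and Kctd17, Uhrf1 like 2700081O15Rik and Bace1, and Tet2 like Alg11, Fam69a and Tshz3, with r between 0.897 and 0.969. These are descriptions over groups that share a course in time.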

How the data were processed

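RNA was counted in 30 libraries, grouped by the stage and genotype in their labels. Libraries were primed at the poly(A) tail with an index and a unique molecular identifier. The authors aligned reads with STAR to mm10 (submitters' processing notes) and deposited whole-number counts per gene, with no normalisation and no pooling. The aligner version, counting tool, annotation, use of strand and collapse of identifiers are not given in the sources used here, so counts may include amplified copies. The authors' tables of genes called between genotypes hold their log2 fold changes and p-values and were not used. No column of per-sample values was left unmatched.

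A gene was tested where 2 libraries of any 1 group had over 10 counts and over 2 CPM, and the tested genes held at least 99.2% of every library. After TMM scaling, 1 quasi-likelihood model of the 10 groups (edgeR 4.0.16 in R 4.3.3, glmQLFit, 20 residual degrees of freedom) served all 17 comparisons, each by a 2-sided glmQLFTest with a Benjamini-Hochberg FDR below 0.05 over 12149 genes. A standard error is the size of the log2 fold change over the root of its F, and intervals are 95%. Each pair of replicates differed beyond counting noise (chi-square per gene 1.45 or more in 30 pairs). The fit was tested on simulated data.

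The 8 genes, the lists and the tests were chosen with earlier results of these data known. All 8 genes are named in each comparison, and from each list at most the 2 called genes with the largest rise and the 2 with the largest fall and a group mean of at least 10 CPM. Irx3, Thy1 and the markers at 0 were named after their values were seen. For each of the 8, genes are named from the 3 with the highest correlation over group means, and some results are not reported here. Positions are from GENCODE release M21 and promoters from RefSeq, with 15 windows matched for all 8 genes. No overlapping gene reaches the last 1000 bases of any of the 8. Alternatives were DESeq2 1.42.0, RLE factors, no factors, no filter, only the libraries compared, thinning to the smallest total, the replicate number as a block, and each library left out.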

Additional observations from a re-analysis of the deposited data

Results flagged for a closer look

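The response of Dnmt3b from d3 to d4 differed between genotypes in the test of the difference itself (interaction -1.87 on the log2 scale, edgeR FDR = 0.0223), and was -0.22 (FDR = 0.387) without d4 wildtype replicate 2, the library at 516 CPM in which epiblast markers were also high. The response of Tet3 to Gdf11 differed between genotypes in the same kind of test (interaction -0.84, edgeR FDR = 0.0175), and was -0.74 (FDR = 0.063) without that library.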

How the results depend on the processing

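Of 136 values (8 genes in 17 comparisons), 3 that passed the threshold with all libraries or under the alternative changed sign, all for Dnmt3b without d4 wildtype replicate 2: 0.25 at d4 between genotypes (-1.41 with all libraries), -0.89 from d3 to d4 in wildtype (0.78) and 0.032 with Gdf11 in wildtype (-1.64). Other changes of sign were of values that passed the threshold in neither fit. The number of the 8 genes called moved by over 1.5 times as follows, and smaller moves are left out. Without d4 wildtype replicate 2 it went from 0 to 1 at d2, 0 to 3 at d3, 1 to 2 at d4G, 0 to 2 from d3 to d4 in wildtype and 1 to 0 for the interaction with Gdf11. In that fit 4.49%, 11%, 8.14%, 19.3% and 2.34% of all genes tested were called in these comparisons. Shares over all genes are not given here for the other settings. DESeq2 gave 0 in place of 1 for the interaction from d3 to d4. With no filter it went from 0 to 1 at d2, 0 to 3 at d3, 0 to 1 from d3 to d4 in wildtype, 3 to 5 from d2.5 to d3 in Nr6a1-/- cells and 1 to 2 for both later interactions. Without factors it went from 1 to 0 at d4G and 2 to 4 with Gdf11 in wildtype. With only the libraries compared it went from 0 to 2 at d2, 0 to 5 at d3, 4 to 1 at d4, 2 to 1 and 1 to 0 with Gdf11 in wildtype and Nr6a1-/-, 3 to 5 from d2.5 to d3 in Nr6a1-/- and 1 to 0 for both later interactions, with fewer libraries in each fit. Thinned to the smallest total it went from 2 to 1 at d2.5, 4 to 2 at d4, 2 to 1 with Gdf11 in wildtype and 1 to 0 for the interaction with Gdf11.

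Leaving out each library in turn gave 0 to 1 called at d2, 0 to 3 at d3, 2 to 4 at d4, 0 to 2 at d4G, 0 to 2 from d3 to d4 in wildtype, 1 to 4 with Gdf11 in wildtype, 3 to 5 from d2.5 to d3, 1 to 4 from d3 to d4 and 0 to 1 with Gdf11 in Nr6a1-/- cells, and 0 to 2 for both later interactions. The Dnmt3b values ranged from -1.86 to 0.25 at d4 between genotypes, -0.89 to 1.22 from d3 to d4 in wildtype and -2.07 to 0.032 with Gdf11 in wildtype. The cause was not tested for any of these.

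The replicate numbers did not pair the libraries: in 0 of 13 comparisons were all 3 same-number correlations above 0.1 (-0.111 to 0.163), and 18 of 39 correlated best with their own number. With the replicate block, 133 of 136 values kept their side of the threshold, and the interaction from d3 to d4 had 2 called in place of 1. Some Dnmt3l libraries at d4 and d4G were at or near the limit of counting.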
